A study of Homo sapiens with 18 samples.

Results

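The comparison described here sets 3 RNA sequencing libraries of H929 cells labelled shRBM39 against 3 labelled scr. They are 6 of the 18 libraries of the study and were chosen by their labels alone. H929 is an established human multiple myeloma cell line, that is, a culture of malignant plasma cells, and all 6 libraries came from it. By their labels, the scr libraries are from cells with a scrambled short hairpin RNA, a control with no intended target, and the shRBM39 libraries from cells with a hairpin named for RBM39. The labels give no hairpin sequence, vector, dose, selection or time after delivery, and do not say that the 3 libraries of a group are separate cultures. The p-values then measure only the spread between these libraries, which may be technical. Values are FPKM, that is, fragments scaled by transcript length and by the mapped total of the library, so levels can be set side by side between genes as amounts per length.

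RBM39 is an RNA-binding protein of the spliceosome. It is related to the splicing factor U2AF2 and works with it near 3′ splice sites, and it also acts as a coactivator of some nuclear receptors and AP-1. Plasma cells devote much of their transcriptome to making and exporting antibody, which needs the transcription factors IRF4, PRDM1 and XBP1, a large endoplasmic reticulum (ER) and a steady supply of amino acids. The question the labels pose is what a hairpin against RBM39 does to the transcripts of such cells.

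RBM39 itself was measured first. It was 4.56, 4.43 and 4.51 FPKM in scr 1, 2 and 3, and 38.3, 38.6 and 35.6 FPKM in shRBM39 1, 2 and 3. All 3 libraries labelled shRBM39 thus lay above all 3 labelled scr, by a ratio of means of 8.33. The log2 difference, shRBM39 minus scr on log2(FPKM + 1), was 2.81 (SE 0.055, limma with Benjamini-Hochberg adjustment, adjusted p = 7.68e-13) and 2.97 after median scaling. An exact two-sided permutation test gave p = 0.1, the smallest value that 3 against 3 libraries allow. The transcript is therefore higher in the libraries whose label names a hairpin against it. Whether labels or columns were exchanged was not tested, and if they were, every direction given here would turn. In what follows scr and shRBM39 name the labels only, "higher" and "lower" mean higher or lower in the libraries labelled shRBM39, and nothing is read as an effect of losing RBM39.

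The table lists 16532 genes, of which 10360 (62.7%) reached 1 FPKM in at least 3 libraries and were tested. Library totals were 374511 to 374807 FPKM in scr and 409102 to 428099 FPKM in shRBM39. Relative sequencing depth, taken from the spacing of low values, was 0.975 to 1.15 times that of scr 1 in the other 5 libraries. Read counts were not used here, so no value carries a counting interval. Pearson correlations of log2(FPKM + 1) across genes were 0.996 to 0.998 within groups and 0.962 to 0.964 between them, as a description of the libraries.

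The groups differed across most of the transcriptome, and the direction of the typical gene depended on the scale. Of the 10360 genes tested, 7477 (72.2%) were called at an adjusted p below 0.05 in limma, 2498 higher (24.1%) and 4979 lower (48.1%). In 74.7% of genes the groups did not overlap. Of the tested genes, 642 reached 1 FPKM in every library of only 1 group, so the filter favoured 1 direction for these, and 381 of them were called lower and 174 higher. The median log2 difference of all genes was -0.134 as deposited, against a median within-group SD of 0.0737. The median FPKM of the tested genes was 9.67 to 9.82 in scr and 8.52 to 8.74 in shRBM39. Dividing each library by that median (median scaling) moved the median difference to 0.019, and 7246 genes (69.9%) were then called, 3841 higher (37.1%) and 3405 lower (32.9%). Quantile normalization, which forces all libraries to the same distribution, gave 34.4% higher and 34.9% lower. Higher genes thus made up 33.4% of calls as deposited, 53.0% after median scaling and 49.6% after quantile normalization.

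Median scaling of all 6 libraries changed which genes were called and turned the direction of 0 called genes, while quantile normalization turned 21. With median scaling and a library left out, 5 turned without shRBM39 1 and 2 without shRBM39 2. All 2498 genes higher as deposited stayed higher after median scaling, and 3405 genes were lower on both scales. A further 1574 genes were lower only as deposited and 1343 were higher only after scaling. Large differences were a minority on either scale. At a log2 difference of at least 1, 159 genes (1.53%) were higher and 333 (3.21%) lower as deposited, and 260 (2.51%) and 211 (2.04%) after median scaling.

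The median difference was not the same at all expression levels. With genes split into 10 bins of equal size by mean FPKM, the median difference lay between -0.19 and -0.12 in all bins but the highest. In the highest bin, from 60.4 FPKM upward, it was 0.04, with 44.2% of genes higher and 33.9% lower. After median scaling 62.4% of that bin was higher and 20.2% lower. The 100 highest genes held 32.3% to 32.6% of all FPKM in scr and 39.9% to 41.7% in shRBM39. Ribosomal protein genes alone held 19.3% to 19.7% and 25.01% to 26.9%. Whether these shares, or the amount of RNA per cell, account for the lower median was not tested. The 10 genes with the highest means, among them JCHAIN, TXNDC5 and FTL (the ferritin light chain), were all higher as deposited and after median scaling. After quantile normalization 5 of them turned, FTL at -0.068, ITGB7 at -0.071, RPLP0 at -0.019, RPS25 at -0.080 and RPLP2 at -0.33.

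**Figure D1:**
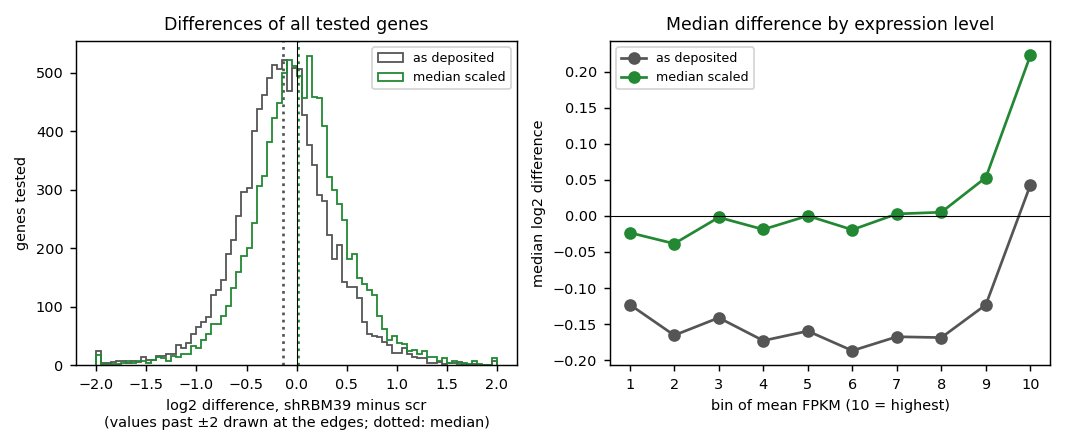
Left, histogram of log2 differences (shRBM39 minus scr) of the 10360 genes tested, as deposited and median scaled, with dotted lines at the medians of -0.134 and 0.019. Right, median log2 difference in each of the 10 bins of mean FPKM, where the highest bin stands above the others on both scales.

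RBM39 had the largest higher difference of the genes named by size, and SCD the next. Genes named by size were taken only from genes whose groups did not overlap, which held for 74.7% of all genes tested. Their separation was therefore fixed by that rule and is not a result. SCD, which puts the double bond into stearate, was 14.7, 15 and 14.8 FPKM in scr and 96, 93.6 and 96.8 FPKM in shRBM39, and differed by 2.61 on the log2 scale (limma, SE 0.043, adjusted p = 1.96e-13). PPFIA4, a liprin scaffold protein, was 1.01, 0.971 and 0.954 FPKM against 7.42, 9.46 and 10.4 FPKM. PPFIA4 did not reach 1 FPKM in every scr library, so it passed the filter only through the group where it is high. HPRT1, which salvages hypoxanthine and guanine, was 6.6, 7.53 and 6.84 FPKM against 38.2, 36.3 and 35.1 FPKM. In each of these 3 genes every shRBM39 library was above every scr library, and shRBM39 1 was the lowest of its group only for PPFIA4.

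NUS1, a subunit of the enzyme that makes dolichol for protein glycosylation, was 3.03, 2.57 and 2.14 FPKM in scr and 11.8, 12.7 and 11.9 FPKM in shRBM39. EIF2S1, the alpha subunit of initiation factor eIF2, whose phosphorylation slows translation under stress, was 5.78, 5.41 and 5.31 FPKM against 22.6, 23.2 and 20.4 FPKM (log2 difference 1.83, SE 0.063, limma adjusted p = 1.08e-10). ANP32E, a chaperone of the histone variant H2A.Z, was 12, 10.7 and 12.7 FPKM against 45.1, 42.9 and 40.7 FPKM. Each shRBM39 library was more than 3-fold above the highest scr library in all 3, among genes chosen with groups apart.

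Other genes of the 20 largest followed with smaller differences. LGMN, a lysosomal asparaginyl endopeptidase, was at 60.7 ± 4.97 against 16.9 ± 1.31 FPKM (shRBM39 against scr, mean ± SD, n = 3 each), and AP3S1, a subunit of the AP-3 sorting adaptor, at 7.14 ± 0.289 against 1.62 ± 0.135 FPKM. CSF2RB, the shared beta chain of the IL-3, IL-5 and GM-CSF receptors, was at 24.9 ± 1.11 against 7.33 ± 0.607 FPKM. GNG7, a G protein gamma subunit, was at 40.9 ± 2.69 against 12.5 ± 0.588 FPKM, ALOX5, the 5-lipoxygenase of leukotriene synthesis, at 20.4 ± 1.72 against 5.93 ± 0.405 FPKM, and the transcription elongation cofactor gene EAF2 at 13.2 ± 0.91 against 3.59 ± 0.316 FPKM. MILR1, an immunoglobulin-like inhibitory receptor, was at 7.8 ± 0.543 against 1.77 ± 0.189 FPKM. For all of these the log2 difference was 1.62 to 1.78, and groups apart were a condition of the choice.

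SLPI, MUC13 and MYOF had the largest lower differences of the genes named by size. SLPI, a secreted protease inhibitor, was 27.2, 20.2 and 20.7 FPKM in scr and 1.06, 0.523 and 0.634 FPKM in shRBM39, and differed by -3.77 on the log2 scale (limma, SE 0.124, adjusted p = 2.76e-10). MUC13, a membrane mucin, was 37.1, 37.7 and 36.6 FPKM against 2.49, 2.48 and 2.81 FPKM. MYOF, a ferlin protein of membrane repair and fusion, was 26.4, 25.4 and 25.1 FPKM against 1.82, 1.41 and 1.51 FPKM. Ratios of means, scr to shRBM39, were 14.3 (MUC13) to 30.7 (SLPI), and groups apart were a condition of the choice. SLPI reached 1 FPKM in every scr library but not in every shRBM39 library, so it passed the filter only through scr.

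CDKN1A (p21), a brake on cyclin-dependent kinases, was the most abundant of the genes lower by at least 4-fold, at 745, 716 and 782 FPKM in scr and 129, 122 and 128 FPKM in shRBM39 (log2 difference -2.56, SE 0.043, limma adjusted p = 1.96e-13). BBC3, which encodes the cell death protein PUMA, was 16.4, 18.5 and 17.8 FPKM against 3.26, 3.61 and 4.06 FPKM. The ligand gene HBEGF, which activates the EGF receptor, was 21.5, 20.6 and 21.6 FPKM against 3.09, 3.09 and 3.46 FPKM. Groups that do not overlap were a condition for naming these genes by size.

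Further genes of the 20 largest lower values were EVC, a protein of the primary cilium in Hedgehog signalling, at 10.6 ± 1.54 against 65.1 ± 2.87 FPKM, and the collagen prolyl hydroxylase gene P3H2, at 0.564 ± 0.128 against 7.58 ± 0.453 FPKM. P3H2 was below 1 FPKM in every shRBM39 library, so it passed the filter only through scr. The voltage-gated proton channel gene HVCN1 was at 1.93 ± 0.321 against 14.1 ± 1.07 FPKM and SAT1, which acetylates polyamines, at 5.44 ± 0.357 against 28.8 ± 2.95 FPKM. INHBE, an activin subunit, was at 2.45 ± 0.696 against 12.9 ± 1.02 FPKM. GZMB, the protease granzyme B, was the most variable, with 35.1, 30.8 and 50.3 FPKM in scr and 5.58, 9.51 and 8.39 FPKM in shRBM39 (log2 difference -2.17, SE 0.266, limma adjusted p = 0.00116). Its scr 3 stood above the other scr libraries.

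**Figure D2:**
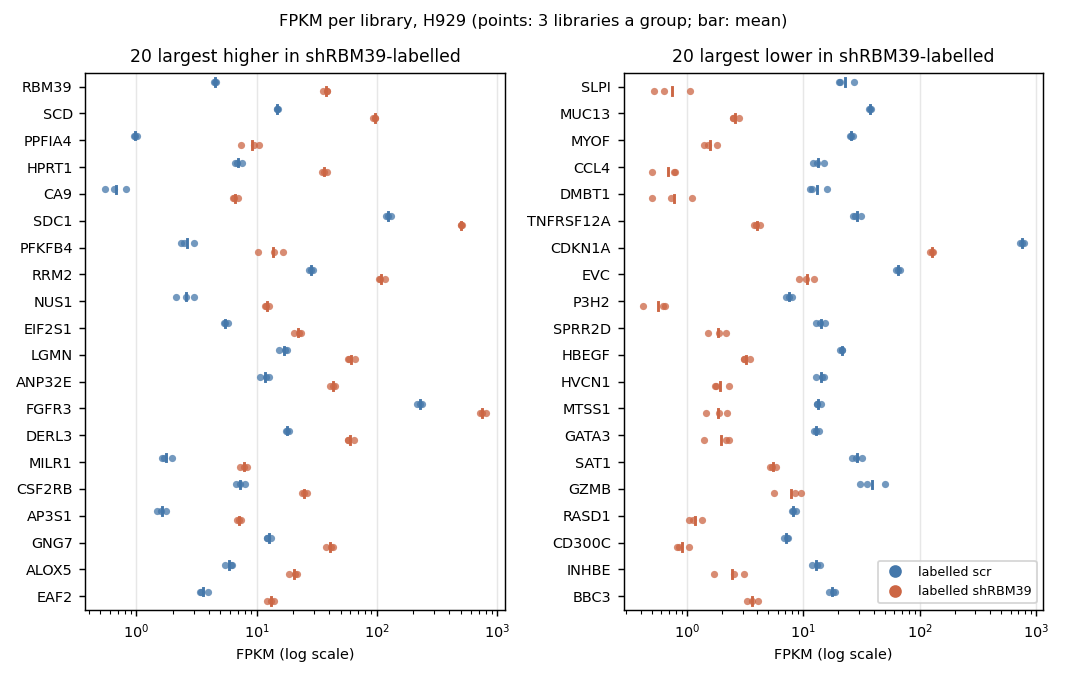
FPKM on a log axis in each library for the 20 genes with the largest higher (left) and lower (right) differences, points for the 3 libraries of a group and a bar for the mean. For RBM39 the shRBM39 libraries sit between 35.6 and 38.6 FPKM and the scr libraries between 4.43 and 4.56 FPKM. The groups are apart for all 40 genes drawn because the choice of genes required it.

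Most plasma cell genes that were expressed were higher in the libraries labelled shRBM39. Of 20 identity genes, 17 passed the filter on low values, while CD27, FCRL5 and TNFRSF13B were at 0.505 FPKM or below in every library. Of the 17, 13 were higher and 4 lower (median log2 difference 0.61). After median scaling 13 were higher and 2 lower (median 0.80), and lower calls numbered 1 on that scale when any library other than shRBM39 3 was left out. After quantile normalization 11 were higher and 3 lower (median 0.44). Many of these genes are abundant, and in the highest expression bin 44.2% of genes were higher as deposited and 62.4% after median scaling. SDC1, which encodes the surface proteoglycan syndecan-1 (CD138), was 124, 130.5 and 119.7 FPKM in scr and 497, 497 and 507 FPKM in shRBM39, and differed by 2.00 on the log2 scale (limma, SE 0.041, adjusted p = 1e-12). TXNDC5, a disulfide isomerase of the ER, was 1824, 1879 and 1781 FPKM against 4313, 4185 and 4448 FPKM. JCHAIN, the joining chain of polymeric antibodies, was 2361, 2238 and 2532 FPKM against 3875, 4062 and 3918 FPKM. The groups did not overlap for these 3 genes.

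DERL3, which takes part in clearing misfolded proteins from the ER, was at 59.9 ± 4.37 against 17.9 ± 0.615 FPKM (log2 difference 1.68). MZB1, an ER cochaperone of antibody secretion, differed by 1.12 and the kinase gene PIM2 by 0.83. Among the transcription factors, IRF4 was at 219.9 ± 1.48 against 139 ± 6.63 FPKM, with a log2 difference of 0.66. XBP1, which drives ER expansion, was 1671, 1717 and 1619 FPKM in scr and 2284, 2148 and 2181 FPKM in shRBM39, a difference of 0.40 that turned to -0.030 after quantile normalization. PRDM1, which encodes Blimp-1, was lower, at 50.5 ± 2.46 against 65.8 ± 0.673 FPKM. The surface genes CD38 (5.77 ± 0.458 against 7.45 ± 0.0568 FPKM) and SLAMF7 (174 ± 7.43 against 205 ± 9.63 FPKM) were lower too, while TNFRSF17, which encodes BCMA, was higher at 375 ± 33.5 against 244 ± 8.97 FPKM. SLAMF7 and CADM1 lost their calls after median scaling, with CADM1 moving from -0.15 to 0.032.

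H929 carries the t(4;14) translocation, which places FGFR3 and NSD2 under immunoglobulin enhancers. FGFR3, a receptor tyrosine kinase, was 227, 239 and 214 FPKM in scr and 714, 740.2 and 803 FPKM in shRBM39, and differed by 1.73 on the log2 scale (limma, SE 0.052, adjusted p = 4.54e-11). NSD2, a histone H3 lysine methyltransferase, was 54.4, 56.6 and 55 FPKM against 79.5, 86.7 and 87.4 FPKM, and the cyclin D2 gene CCND2 35, 37 and 38 FPKM against 66.6, 69.4 and 67.9 FPKM. In these 3 genes each shRBM39 library lay above each scr library. Their neighbours TACC3 (-0.13) and LETM1 (-0.19) were lower as deposited and were not called after median scaling, where TACC3 stood at 0.046. LETM1 was at 6.21 ± 0.141 against 7.25 ± 0.25 FPKM, and without scr 2 or without shRBM39 3 only 1 of these neighbours was called.

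Most markers of other cell types did not reach the filter. Of those that did, FCER2, CD33, SLPI, DMBT1, FN1 and PECAM1 reached 1 FPKM in every scr library but not in every shRBM39 library, so they passed only through the group where they are high, and counts of lower markers are given as a description. In bulk RNA, fewer cells of a type and less RNA per cell cannot be told apart. Of 11 B cell markers 4 were tested, and those in the table but not tested lay at 0.453 FPKM or below in every library. The B cell receptor gene CD79B was higher at 55.4 ± 1.34 against 46.1 ± 0.619 FPKM, while CD79A, BANK1 and FCER2 were lower as deposited, with only 1 lower call without scr 3. Of 17 T and NK cell markers 4 were tested. CD3E was 43, 39.1 and 46.7 FPKM in scr and 18.3, 17.4 and 15.5 FPKM in shRBM39, whereas the other CD3 chains CD3D and CD3G and the coreceptors CD4 and CD8A were below 0.1 FPKM in every library. GATA3 and CD7 were lower as well, and NCAM1 (CD56), which myeloma cells often carry, was higher at 26.8 ± 0.984 against 17.8 ± 1.2 FPKM. Summed over the T and NK list, the level was 79.0 to 85.7 FPKM in scr and 49.5 to 52.6 FPKM in shRBM39.

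Of 13 myeloid markers 3 were tested, with CD68 and CD33 lower and CEBPA higher. Without any 1 of the scr libraries CD33 was not tested and 1 marker was called lower. CD14 and LYZ were at 0.163 FPKM or below throughout, and the summed level was 31.0 to 34.1 FPKM in scr and 20.1 FPKM in each shRBM39 library. Of 16 epithelial markers, SLPI, MUC13 and DMBT1 were tested and all 3 were lower. All 3 are among the 20 largest lower differences, and the list was chosen with earlier results of these data known. The defining genes EPCAM, CDH1 and KRT8 were at most 1.42 FPKM in any library. The summed level was 74.5 to 80.6 FPKM in scr and 5.46 to 6.30 FPKM in shRBM39. SLPI, MUC13 and DMBT1, with scr means of 22.7, 37.2 and 13.0 FPKM, carry most of it. Neither count nor sum thus describes epithelial markers as a set. Of 15 fibroblast and endothelial markers, ACTA2 (5.6 ± 0.233 against 16.5 ± 0.664 FPKM), FN1 and PECAM1 were tested and all 3 were lower, or 2 without any 1 of the scr libraries. The untested ones, among them the collagen gene COL3A1 and VWF, were at most 0.0777 FPKM. Of 10 erythroid and platelet markers, 0 reached the filter. Whether cells of another type were present in the cultures was not tested.

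**Figure D3:**
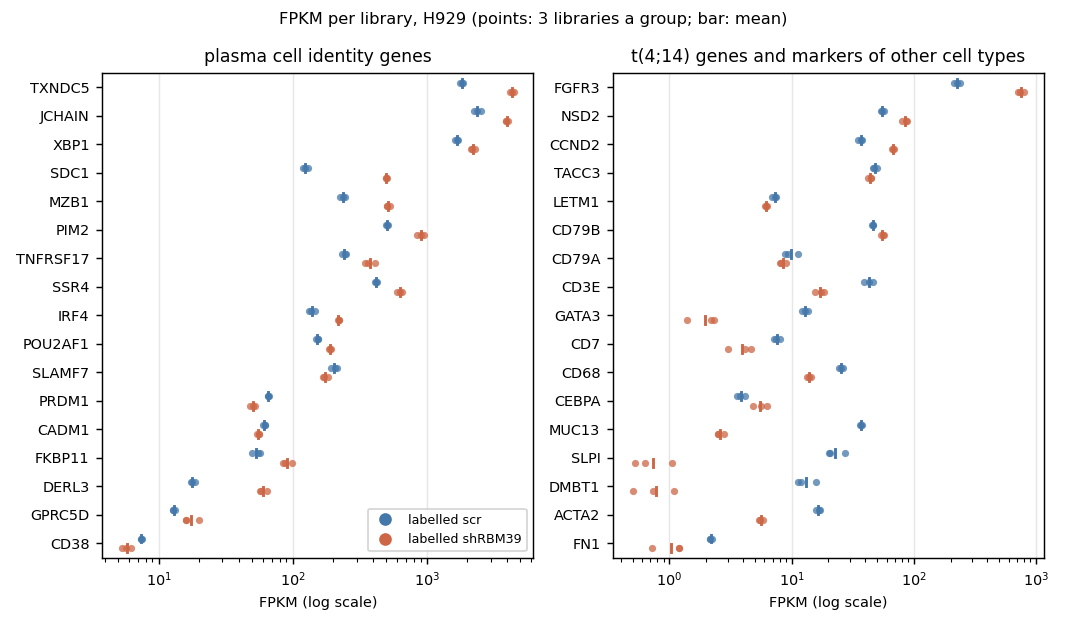
FPKM on a log axis in each library for plasma cell identity genes (left) and for t(4;14) genes and markers of other cell types (right), points for libraries and bars for means. In the left panel TXNDC5 reaches 4448 FPKM, and SDC1 and FGFR3 show wide gaps between the labelled groups.

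Genes induced by low oxygen were mostly higher. Hypoxia-inducible factors (HIF) bind the core sequence ACGTG in the regulatory regions of such genes when prolyl hydroxylases are inactive. Of 24 genes listed, 20 were tested, with 15 higher and 4 lower (median log2 difference 0.53), and 15 higher and 2 lower after median scaling (median 0.70). As deposited, 14 were higher without any 1 of the shRBM39 libraries. All genes tested were 24.1% higher and 48.1% lower as deposited, and 37.1% and 32.9% after median scaling. CA9, a carbonic anhydrase, was 0.543, 0.647 and 0.826 FPKM in scr and 6.5, 6.35 and 7.04 FPKM in shRBM39 (log2 difference 2.19, SE 0.078, limma adjusted p = 1.21e-10). It reached 1 FPKM in no scr library, so it passed the filter only through the group where it is high. BHLHE40, a transcriptional repressor, was 15.9, 18.6 and 20.3 FPKM against 48.6, 66.7 and 57 FPKM. PFKFB4, which sets the pace of glycolysis, was 2.35, 3.02 and 2.49 FPKM against 10.2, 13.9 and 16.5 FPKM. In these 3 genes the groups did not overlap, and shRBM39 1 was not the highest of its group for any of them.

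The vasoactive peptide gene ADM was at 124 ± 3.39 against 56 ± 2.97 FPKM, and the mitophagy receptors BNIP3L (51.7 ± 2.45 against 25.5 ± 1.48 FPKM) and BNIP3 (70.9 ± 4.57 against 37.6 ± 0.482 FPKM) were close to it in size of difference. ANKRD37 was at 5.2 ± 0.158 against 1.65 ± 0.306 FPKM, the collagen prolyl hydroxylase gene P4HA1 at 75.6 ± 7.69 against 39.4 ± 3.39 FPKM and DDIT4, an inhibitor of mTORC1, at 453 ± 65.2 against 308 ± 9.31 FPKM (n = 3 each). Those lower included the related kinase gene PFKFB3 (log2 difference -0.67) and the secreted hormone gene STC2 (-0.46). EGLN1, the oxygen sensor that marks HIF for destruction, was 18.7, 18.3 and 21.2 FPKM against 16.3, 20.8 and 18.3 FPKM, and its groups overlapped (limma adjusted p = 0.446).

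Promoters were searched for the longer form TACGTG, which holds ACGTG within it, on both strands of the 250 bases before each start (RefSeq, GRCh38.p14). Of 17 hypoxia genes with a promoter in the table, 6 held it, against 3.10% of the 8508 promoters of tested genes. The shorter ACGTG was in 9 of the 17 and in 24.4% of all. It was also in 11 of 22 ER translocon, 4 of 8 serine and one-carbon, 8 of 19 lysosomal and 7 of 19 immediate early promoters. Amino acid transporters held it in 5 of 19 and tRNA synthetases in 2 of 19. A high share of ACGTG was thus not particular to hypoxia genes. Among genes higher by a log2 difference of at least 1, 8.8% of 125 promoters held TACGTG, and among those lower by at least 1, 1.56% of 257. A match describes the sequence and is not a binding site. The 60 bases around each match are shown, 5′ to 3′ on the gene's strand, with the motif or its reverse complement in capitals, since TACGTG was the sequence these members share. In CA9 (chr9:35673868-35673927, plus strand) the motif starts 18 bases before the gene. ANKRD37 is at chr4:185396670-185396729 (plus strand), P4HA1 at chr10:73096920-73096979 (minus strand), DDIT4 at chr10:72273771-72273830 (plus strand), BHLHE40 at chr3:4979261-4979320 (plus strand) and EGLN1 at chr1:231422288-231422347 (minus strand).
CA9: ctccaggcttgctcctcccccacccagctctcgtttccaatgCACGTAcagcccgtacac
ANKRD37: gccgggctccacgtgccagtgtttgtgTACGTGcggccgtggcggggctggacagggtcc
P4HA1: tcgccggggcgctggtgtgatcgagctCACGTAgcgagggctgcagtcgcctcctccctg
DDIT4: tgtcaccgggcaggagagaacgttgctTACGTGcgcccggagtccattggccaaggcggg
BHLHE40: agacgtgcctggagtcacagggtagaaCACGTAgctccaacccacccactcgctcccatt
EGLN1: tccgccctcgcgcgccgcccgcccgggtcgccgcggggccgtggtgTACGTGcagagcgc
Of these 6 genes, 5 were higher in shRBM39 and EGLN1 was not called. CA9, 1 of the 5, passed the filter only through shRBM39.

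Amino acid transporters and the enzymes that charge tRNAs moved the other way. All 20 transporter genes listed were tested, with 18 lower and 2 higher (median log2 difference -0.52), and 15 lower and 2 higher after median scaling (median -0.37). As deposited, 14 were lower without scr 1 or scr 3, and 15 without scr 2. Over all genes 48.1% were lower and 24.1% higher as deposited, and 32.9% and 37.1% after median scaling. SLC7A11 and SLC36A1 reached 1 FPKM in every scr library but not in every shRBM39 library. They thus passed the filter only through the group where they are high. SLC7A5, the light chain of the large neutral amino acid exchanger LAT1, was 237, 248 and 236 FPKM in scr and 86.9, 83.8 and 85.7 FPKM in shRBM39 (log2 difference -1.48, SE 0.039, limma adjusted p = 1.31e-11). Its heavy chain SLC3A2 was 176, 174 and 173 FPKM against 72.5, 66.3 and 67 FPKM. SLC15A4, a lysosomal transporter of histidine and short peptides, was 22.9, 23 and 22.5 FPKM against 6.63, 6.8 and 7.12 FPKM. In all 3 the groups were far apart relative to the spread within them. The glycine transporter gene SLC6A9 (4.35 ± 0.439 against 13.1 ± 0.422 FPKM), the neutral amino acid transporter gene SLC38A2 (23.2 ± 1.05 against 50.2 ± 1.96 FPKM) and the cystine exchanger gene SLC7A11 (0.817 ± 0.0897 against 2.42 ± 0.175 FPKM) were lower too. Of the 2 higher genes, the glutamine transporter gene SLC38A5 was 62.6, 67.4 and 62 FPKM in scr and 146, 145 and 149.6 FPKM in shRBM39, and SLC36A4 differed by 0.28.

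All 23 genes of cytosolic tRNA synthetases and their scaffold were tested, with 15 lower and 4 higher (median -0.48), and 12 lower and 7 higher after median scaling (median -0.31). MARS1, which charges methionine tRNA, was 251, 245 and 248 FPKM in scr and 114, 112 and 106 FPKM in shRBM39 (log2 difference -1.16, SE 0.040, limma adjusted p = 9.81e-11). GARS1 (glycine) differed by -0.98, SARS1 (serine) by -0.89 and AARS1 (alanine) by -0.79. The higher ones were QARS1 (glutamine), at 78 ± 3.86 against 51.4 ± 3.42 FPKM, VARS1 (valine), at 167 ± 1.68 against 125 ± 0.455 FPKM, FARSA (phenylalanine) and the scaffold protein gene EEF1E1. Synthetases thus did not share a single direction, and 48.1% of all genes were lower and 24.1% higher as deposited.

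Serine and one-carbon enzymes, which make serine from a glycolytic intermediate and pass on its carbon units, were lower in 9 of 12 tested cases and higher in 2 (median -0.57), and in 8 and 3 after median scaling (median -0.40). PHGDH, the first enzyme of serine synthesis, was 39.3, 38.8 and 35.9 FPKM in scr and 12.6, 12.9 and 11.9 FPKM in shRBM39. The next enzyme PSAT1 was at 30.2 ± 1.75 against 55 ± 2.7 FPKM and the mitochondrial folate enzyme MTHFD2 at 44 ± 2.52 against 90.1 ± 3.16 FPKM. GLDC, which cleaves glycine, was higher at 94.3 ± 1.71 against 53.8 ± 1.74 FPKM, as was SHMT1 at 14.8 ± 1.39 against 10.1 ± 0.338 FPKM. PHGDH, PSAT1 and MTHFD2 did not overlap between groups, as held for 74.7% of all genes. Shares of all genes were 48.1% lower and 24.1% higher as deposited, and 32.9% and 37.1% after median scaling.

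Many transporter, synthetase and serine genes are known targets of ATF4, the transcription factor of the integrated stress response, which binds with C/EBP partners to sequences such as TGATGCAA. That sequence, searched on both strands of the same windows, was in 0.376% of all 8508 promoters. It was in 2 of 19 synthetase promoters, 1 of 8 serine and one-carbon promoters and 0 of 19 transporter promoters. The 3 matches are shown because each of these genes was lower, AARS1 at -0.79, IARS1 at -0.52 and the folate enzyme gene MTHFD1L at -0.72. AARS1 is at chr16:70289660-70289719 (minus strand), IARS1 at chr9:92293698-92293757 (minus strand) and MTHFD1L at chr6:150866331-150866390 (plus strand).
AARS1: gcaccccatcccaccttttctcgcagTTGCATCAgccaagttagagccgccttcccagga
IARS1: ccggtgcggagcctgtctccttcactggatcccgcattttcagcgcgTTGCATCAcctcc
MTHFD1L: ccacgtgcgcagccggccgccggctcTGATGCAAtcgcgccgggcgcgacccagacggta
Capitals mark TGATGCAA or its reverse complement, and no other promoter of the 3 lists held it within 250 bases.

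**Figure D4:**
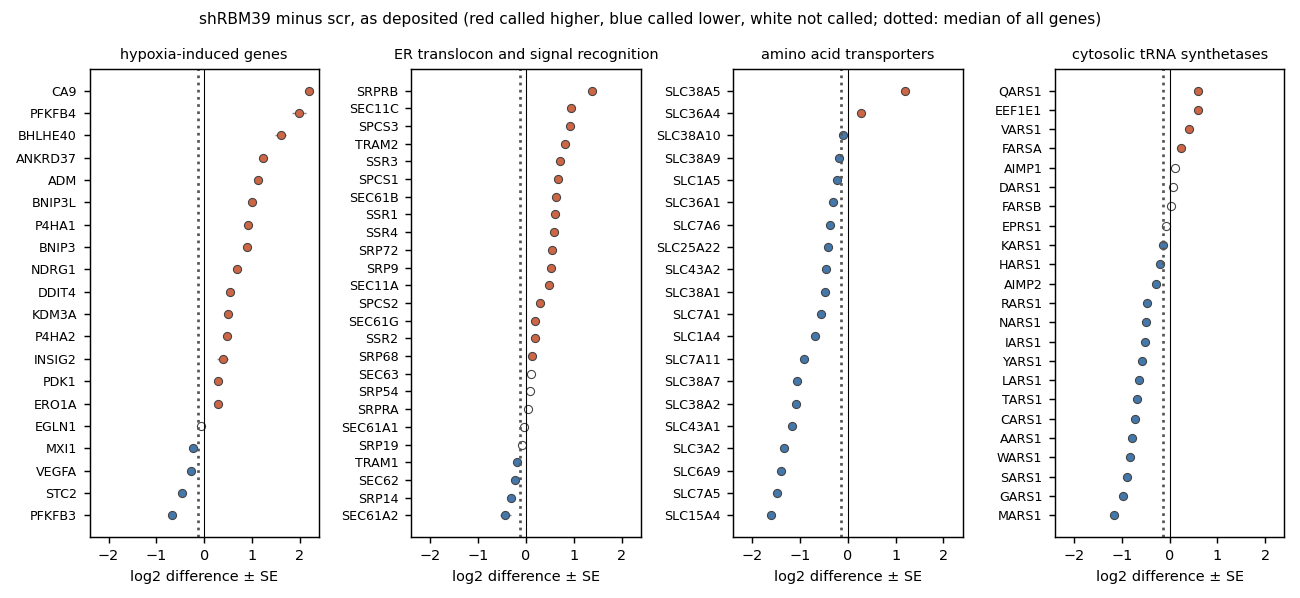
Log2 difference ± SE (shRBM39 minus scr, as deposited) of every tested member of 4 lists, filled by call and with a dotted line at the median of all genes, -0.134. Hypoxia and ER translocon genes lie mostly to the right, from CA9 at 2.19 and SRPRB at 1.38, and amino acid transporters and tRNA synthetases mostly to the left, down to SLC15A4 at -1.60 and MARS1 at -1.16.

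Genes of protein entry into the ER were more often higher than lower. All 25 genes of the signal recognition particle, translocon and signal peptidase were tested, with 16 higher and 4 lower (median 0.29). After median scaling 20 were higher and 2 lower (median 0.47), with 1 lower when scr 1, scr 3 or shRBM39 3 was left out, and after quantile normalization 16 and 6 (median 0.32). SRPRB, the membrane anchor of the signal recognition particle receptor, was 27.9, 28.8 and 27.9 FPKM in scr and 75.4, 75.4 and 74.7 FPKM in shRBM39 (log2 difference 1.38, SE 0.041, limma adjusted p = 4.52e-11). The signal peptidase genes SEC11C (441 ± 42.6 against 228 ± 9.94 FPKM) and SPCS3 (53.3 ± 2.21 against 27.8 ± 0.462 FPKM) and the translocation gene TRAM2 (39.6 ± 2.04 against 22 ± 0.733 FPKM) were higher. The paralog TRAM1 was lower at 317 ± 9.95 against 363 ± 11.6 FPKM and lost its call after median scaling. The motif CCACG, part of the ER stress element read by XBP1 and ATF6, was in 16 of 22 of these promoters and in 45.6% of all. It was also in 10 of 17 hypoxia, 5 of 8 serine and one-carbon and 8 of 19 synthetase promoters. Among genes higher by a log2 difference of at least 1 it was in 58.4%, and among those lower in 36.2%. In CCACGTG it overlaps ACGTG.

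In N-glycosylation the direction of the majority depended on scaling, with 6 of 26 higher and 13 lower as deposited, 12 higher and 6 lower after median scaling and 8 and 7 after quantile normalization. Without scr 2 the higher calls as deposited were 4. All genes were 24.1% higher and 48.1% lower as deposited, and 37.1% and 32.9% after median scaling. Among the oligosaccharyltransferase subunits, DDOST was 847, 823 and 807 FPKM in scr and 495, 470.5 and 488 FPKM in shRBM39, while the small subunit OST4 was 278, 282 and 282 FPKM against 425, 375 and 384 FPKM. The groups were apart for both, in opposite directions. Coats of ER to Golgi vesicles were likewise mixed, at 9 of 25 higher and 11 lower as deposited and 13 and 5 after median scaling. The COPI subunit COPZ1 differed by 0.96 and its partner ARCN1 by -0.41.

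Lysosomal hydrolases and membrane proteins were lower in 19 of 28 tested cases and higher in 4 (median -0.41), and in 16 and 9 after median scaling (median -0.23). PSAP, the precursor of the saposins that present lipids to hydrolases, was 513, 508 and 501 FPKM in scr and 238, 230.1 and 248 FPKM in shRBM39 (log2 difference -1.09, SE 0.040, limma adjusted p = 1.54e-10). The carboxypeptidase gene CTSA was at 37.9 ± 1.54 against 78.1 ± 1.73 FPKM. GUSB, a glucuronidase, was higher at 63 ± 1.14 against 40.2 ± 2.03 FPKM, as was the membrane protein gene SCARB2 at 41.8 ± 0.516 against 26.9 ± 1.32 FPKM. Lower calls made up 48.1% of all genes and higher calls 24.1% as deposited, and 32.9% and 37.1% after median scaling.

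Nucleotide synthesis genes were more often higher with all 6 libraries in the fit. Of 15 purine genes tested, 6 were higher and 2 lower, and 9 and 2 after median scaling. As deposited, the calls were 5 higher and 5 lower when shRBM39 1 was left out. The purine list summed to 652 to 678 FPKM in scr and 607 to 661 FPKM in shRBM39. Over all genes, 24.1% were higher and 48.1% lower as deposited. The salvage gene HPRT1 stood at one end of this list and PRPS1, which makes the ribose phosphate donor, at the other, with 160.1, 154 and 156 FPKM in scr and 70.3, 68.9 and 66.1 FPKM in shRBM39. Its paralog PRPS2 was higher at 18.3 ± 0.368 against 11 ± 0.318 FPKM, so these 2 isoenzymes differed in opposite directions. Of 16 pyrimidine and dNTP genes, 8 were higher and 2 lower, and 11 and 2 after median scaling. RRM2, the S phase subunit of ribonucleotide reductase, was 29.4, 27.1 and 28.2 FPKM in scr and 116, 104 and 107 FPKM in shRBM39 (log2 difference 1.91, SE 0.051, limma adjusted p = 1.31e-11). Its p53-induced counterpart RRM2B was lower, at 10.4, 9.1 and 9.99 FPKM against 4.49, 5.45 and 5.17 FPKM.

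Fatty acid genes had no common direction, with 5 of 18 higher and 9 lower as deposited, 7 and 6 after median scaling and 5 and 6 after quantile normalization. Desaturation genes stood at the higher end, with SCD, FADS2 (50.1 ± 1.9 against 20.8 ± 0.298 FPKM) and FADS1 (13.2 ± 0.582 against 8.21 ± 0.564 FPKM). FASN, the synthase that builds palmitate, was lower at 44.6 ± 2.72 against 70.5 ± 2.33 FPKM. The acyl-CoA synthetase genes ACSL1 (4.6 ± 0.134 against 14.6 ± 0.463 FPKM) and ACSL4 (13.5 ± 0.903 against 26.9 ± 1.11 FPKM) were lower as well. In the TCA cycle and pyruvate dehydrogenase, 13 of 24 genes were higher and 5 lower, and 18 and 3 after median scaling. The dehydrogenases IDH2 and OGDH differed by 0.63 and 0.57, and SUCLA2 and the pyruvate dehydrogenase component PDHX by -0.82 and -0.66. Among NRF2 targets and the pentose phosphate pathway, 8 of 20 were higher and 4 lower as deposited, with 2 lower without scr 3, and 12 and 2 after median scaling, where 0 to 1 were lower without any 1 library. The higher ones were led by the glutathione reductase gene GSR (26.8 ± 0.657 against 12.2 ± 0.286 FPKM) and the peroxiredoxin gene PRDX1 (81.8 ± 4.36 against 40.4 ± 2.44 FPKM).

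Surface and immune genes differed gene by gene. Of 17 genes of antigen presentation, 8 were higher and 3 lower, and 13 and 3 after median scaling. PSMB10, an immunoproteasome subunit, was higher at 133 ± 3.27 against 87 ± 2.31 FPKM. HLA-DQB1, a class II chain, was lower at 1.59 ± 0.242 against 4.29 ± 0.222 FPKM. Of 26 integrins, selectins and tetraspanins, 7 were higher and 14 lower, and 11 and 13 after median scaling. As deposited this is near the shares of all genes, 24.1% higher and 48.1% lower. After scaling those shares were 37.1% and 32.9%. CD37 and PECAM1, both lower, passed the filter only through scr. ITGA4, which pairs with ITGB7 or ITGB1 in homing of plasma cells, was 46.5, 47.4 and 48.8 FPKM in scr and 112, 131 and 123 FPKM in shRBM39. The hyaluronan receptor gene CD44 was lower, at 137 ± 6.79 against 263 ± 9.12 FPKM, as was the adhesion gene ICAM1, at 45.1 ± 4.03 against 93 ± 4.83 FPKM. The groups did not overlap for ITGA4, CD44 or ICAM1.

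Of 13 receptors of the TNF family 5 were higher and 7 lower, and 6 and 6 after median scaling. TNFRSF12A, the receptor of TWEAK, was 27.8, 26.7 and 31.3 FPKM in scr and 3.75, 3.93 and 4.23 FPKM in shRBM39 (log2 difference -2.57, SE 0.068, limma adjusted p = 1.31e-11). Of the TRAIL receptors, the death receptor gene TNFRSF10B was lower (-1.80) and the decoy receptor gene TNFRSF10C higher (0.86). Another decoy receptor gene, TNFRSF10D, was called lower, and it passed the filter only through scr. Of 26 receptors of cytokines and growth factors, 6 were higher and 14 lower, and 9 and 11 after median scaling. As deposited this too is near the 24.1% higher and 48.1% lower of all genes. FGFR1, IL17RC and TGFBR1, all lower, passed the filter only through scr. CSF2RB, FGFR3 and IL10RB (24.7 ± 1.15 against 11.1 ± 0.878 FPKM) were at the higher end, and IL4R (1.25 ± 0.219 against 4.23 ± 0.407 FPKM) and the BMP and activin receptor gene ACVR1 (6.91 ± 0.536 against 15.7 ± 0.489 FPKM) at the lower.

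Of 25 chemokine and chemokine receptor genes, 9 were tested, with 3 higher and 5 lower, or 3 lower without scr 3, and 3 and 4 after median scaling. The ligand gene CCL4 was 12, 15 and 13.1 FPKM in scr and 0.497, 0.787 and 0.777 FPKM in shRBM39, and CCL3 was 857, 846 and 823 FPKM against 351, 247 and 286 FPKM. CCL3L3, also in the table, is a near-identical copy of CCL3, so reads may be split between them. Both ligand genes, CCL4 and CCL3, were lower in every shRBM39 library, while their receptor gene CCR1 was higher at 128 ± 7.5 against 59 ± 2.06 FPKM. CCL4 and CCL3L3 passed the filter only through scr, where they are high, so the filter favoured lower calls for them. Across all genes 24.1% were higher and 48.1% lower as deposited.

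Immediate early genes, which respond within minutes to growth factors and stress, were lower in 18 of 23 tested cases and higher in 4 (median -0.55), and in 16 and 4 after median scaling (median -0.37). ATF3, a stress-induced repressor, was 18.8, 18.4 and 19.2 FPKM in scr and 4.38, 4.52 and 5.14 FPKM in shRBM39 (log2 difference -1.80, SE 0.064, limma adjusted p = 1.19e-10). The orphan receptor gene NR4A1 was 10.5, 10.3 and 10.7 FPKM against 2.01, 1.77 and 1.87 FPKM. EGR1 went the other way, at 2.9, 3.42 and 3.24 FPKM against 6.58, 6.66 and 6.77 FPKM. FOS was 1.64, 1.93 and 2.26 FPKM against 1.09, 1.67 and 1.73 FPKM, with overlapping groups (limma adjusted p = 0.0581). Among 27 cell cycle entry genes there were 8 higher and 14 lower calls, and 12 and 6 after median scaling. For all genes the shares were 24.1% higher and 48.1% lower as deposited, and 37.1% and 32.9% after scaling. Beside CDKN1A, the cyclin D3 gene CCND3 (-0.79) and E2F7 (-1.04) were lower, and the related repressor E2F8 (0.62) higher. CCND1, not rearranged in t(4;14) cells, was 30.7 ± 0.0948 against 33.8 ± 0.133 FPKM, with a log2 difference of -0.13 as deposited and at 0.042 after median scaling.

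Cytoskeletal genes differed in both directions. The beta tubulin gene TUBB was 224, 228 and 209 FPKM in scr and 551, 537 and 531 FPKM in shRBM39 (log2 difference 1.29, SE 0.043, limma adjusted p = 8.29e-11), and TUBA1B was at 441 ± 15.1 against 218 ± 12.3 FPKM, with the reservation that tubulin genes are similar. Of 14 tubulins, actins and related genes tested, 7 were higher and 4 lower, and 9 and 4 after median scaling. Beta actin (ACTB), often taken as a reference gene, was lower at 693 ± 13.1 against 853 ± 12.4 FPKM, with a log2 difference of -0.30 as deposited and -0.12 after median scaling. Among 19 annexins, S100 proteins and galectins there were 6 higher and 7 lower calls, and 7 and 4 after median scaling, or 2 lower on that scale without scr 1 or scr 3, and 5 and 7 after quantile normalization. LGALS3, a galectin, was 120.0, 118 and 141 FPKM in scr and 349, 389 and 409.9 FPKM in shRBM39, and S100A10 was at 31.8 ± 3.38 against 12.3 ± 0.761 FPKM. S100A6 was lower at 7.86 ± 1.6 against 14.8 ± 2.23 FPKM.

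Splicing partners of RBM39 showed smaller differences than RBM39 itself. Of 26 paralogs, partners and 3′ splice site factors, RBM39 included, 7 were higher and 14 lower (median -0.15, against -0.134 for all genes), with 8 and 8 after median scaling and 7 and 12 after quantile normalization. CHERP was at 20.9 ± 1.26 against 12.5 ± 0.551 FPKM, the branch site protein gene SF3B1 at 50.7 ± 1.88 against 72.4 ± 0.991 FPKM and RBM6 at 16.6 ± 0.104 against 28.5 ± 0.641 FPKM. Of 18 nonsense-mediated decay factors 5 were higher and 8 lower, and 7 and 5 after median scaling, with the exon junction gene RBM8A at 0.53 and SMG5 at -0.53. The table holds gene totals, so splicing and transcript isoforms were not analysed here.

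Of 45 chromatin modifiers 25 were lower and 9 higher (median -0.28), and 20 and 14 after median scaling (median -0.12). The demethylase genes KDM4A (18.7 ± 1.82 against 35.9 ± 0.529 FPKM) and KDM5A (10.5 ± 1.23 against 19.1 ± 0.475 FPKM) and the dioxygenase gene TET3 (2.49 ± 0.272 against 5.29 ± 0.432 FPKM) were lower, and the methyltransferase genes EZH2 (11.2 ± 0.862 against 7.58 ± 0.152 FPKM) and DNMT3B (15.7 ± 0.685 against 10.4 ± 1.3 FPKM) higher. Of 501 zinc finger genes with a ZNF symbol, 284 were tested, with 134 lower and 48 higher. After median scaling 76 were lower and 70 higher (26.8% and 24.6%), below the 32.9% and 37.1% of all genes in each direction. Of 29 Mediator subunits 15 were lower and 7 higher, and 11 and 11 after median scaling, or 7 lower on that scale without scr 1. As deposited this is near the 48.1% lower and 24.1% higher of all genes.

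Counts of translation and mitochondrial genes depended on the scale. Of 42 translation factors, 21 were higher and 15 lower as deposited, 24 and 6 after median scaling, and 17 and 16 after quantile normalization. Beside EIF2S1, the eIF3 subunit gene EIF3K was at 271 ± 10.3 against 188 ± 8.27 FPKM and EIF1, which guards start codon choice, at 231 ± 5.89 against 347 ± 5.3 FPKM. Of 77 mitochondrial ribosomal protein genes, 22 were higher and 26 lower as deposited, and 41 and 10 after median scaling. MRPL10, at 46 ± 1.32 against 23.6 ± 0.75 FPKM, was higher on both scales. Of 14 chaperonin and prefoldin subunits 3 were higher and 4 lower, with 9 and 2 after median scaling and 3 and 5 after quantile normalization. Of 21 nucleoporins 4 were higher and 7 lower, and 12 and 3 after median scaling, with NUP153 at 17.7, 18 and 17.2 FPKM in shRBM39 and 7.11, 7.26 and 6.95 FPKM in scr. Of 21 ABC transporters 13 were lower and 6 higher as deposited, and 11 and 6 after median scaling, with ABCA7, a lipid transporter, at 18.8 ± 1.22 against 46 ± 1.74 FPKM.

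Set against all genes, 24.1% higher and 48.1% lower as deposited and 37.1% and 32.9% after median scaling, lists stood on both sides. Of the 41 lists with a tested member, 22 had a median above 0 after scaling and 19 below. In 9 lists the majority turned with scaling, among them N-glycosylation, vesicle coats, cell cycle entry, nucleoporins and mitochondrial ribosomal proteins.

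**Figure D5:**
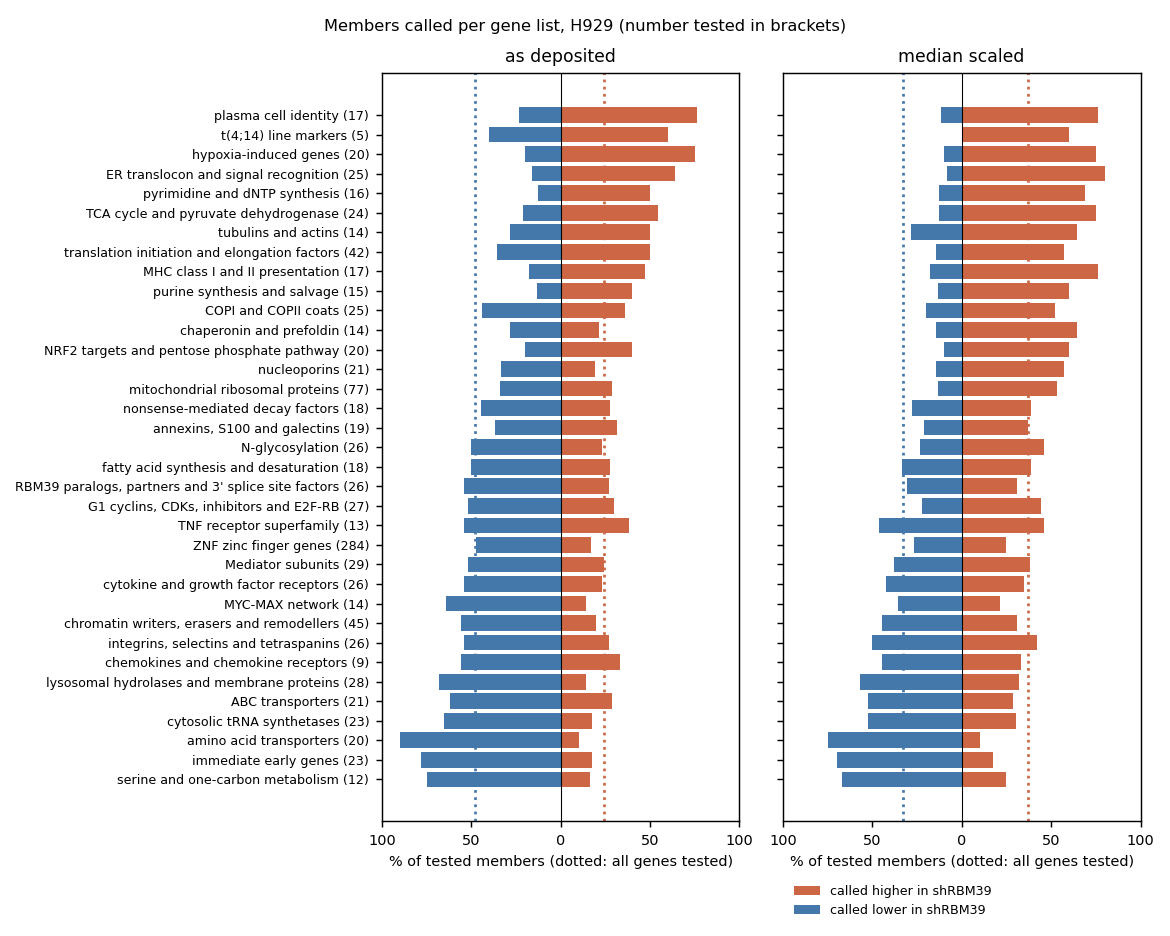
Share of tested members called higher (right) or lower (left) in each list with at least 5 tested members, as deposited and after median scaling, with dotted lines at the shares of all genes, 24.1% and 48.1% on the left panel and 37.1% and 32.9% on the right. Plasma cell, hypoxia and ER translocon lists keep more higher than lower calls on both scales, and transporter, immediate early and serine lists more lower calls.

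Neighbouring genes were read together as a description. When 10228 genes were placed in reference order and read in 397 runs of 25 neighbours, the median difference of a run, relative to all genes, lay between -0.13 and 0.15 in the central 80% of runs. The lowest run, from COMMD9 to CKAP5, was at -0.28 with 3 genes higher and 17 lower, and the highest, from NDUFB11 to SLC35A2, was at 0.34 with 15 higher and 2 lower. Whether neighbours differ together was not tested.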

How the data were processed

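RNA sequencing libraries of H929 cells, 3 labelled scr and 3 labelled shRBM39, were used as deposited. The extract protocol names TRIzol for RNA and a SMARTER kit for the libraries, per the labels. The authors deposited FPKM per gene symbol. For the aligner and counting tool the entry is "not given in the sources used here". Mouse builds (GRCm38 and mm10) are named in the submitters' processing notes, although cells and symbols are human, so coordinates are given only for RefSeq promoters (GRCh38.p14). Of the symbols, 98.2% were in the reference. The other tables of the study were not used here, and 0 columns were left unmatched.

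Groups follow the labels. Genes with FPKM of at least 1 in at least 3 libraries were fitted with limma 3.58.1 (trend and robust, two-sided) in R 4.3.3 on log2(FPKM + 1), which understates differences of low genes. Calls needed an adjusted p below 0.05 (Benjamini-Hochberg, over all genes tested). Median scaling divided each library by its median over the tested genes and multiplied it by the mean of the medians. The members and the 43 gene lists were chosen with earlier results of these data known, and 7 further lists after these values were seen. Lists are described by counts and medians, without a set test. Text names RBM39, up to 20 genes per direction with the largest differences called on both scales (group mean of at least 5 FPKM, groups apart), up to 3 called members per list and direction by adjusted p, all tested markers and the 10 highest genes. Other members named beside them were chosen after their values were seen, and some that the rule names are not reported here. Promoters were searched on both strands for 7 motifs, of which 4 are reported.

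Alternatives changed the pseudocount to 0.1, dropped the filter or raised it to 5 FPKM, scaled by medians or quantiles, used plain limma, blocked on the replicate number, or left out each library. The fit was tested on simulated data for this comparison with 10203 genes run, where 88.1%, 100% and 100% of genes changed by 0.5, 1 and 2 (log2) were called and 0.05% of unchanged ones. Tables were handled in Python 3.11.15 with pandas 2.3.3, NumPy 2.4.6 and SciPy 1.17.1.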

Additional observations from a re-analysis of the deposited data

How the results depend on the processing

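RBM39 was called higher under every alternative run, with log2 differences of 2.79 to 2.84 when 1 library was left out and 3.03 with a pseudocount of 0.1. The number of genes called was 7453 with that pseudocount, 8411 without a filter, 5498 with a filter at 5 FPKM, 7246 after median scaling, 7187 after quantile normalization and 7440 in plain limma. Without 1 library it was 6744 to 7266, with 2243 to 2381 higher and 4414 to 4885 lower. Of these counts, genes called higher moved by more than 1.5 times from 2498, to 3841 after median scaling and 3870 with median scaling and the replicate block. The labels do not say whether same-numbered libraries are pairs. Deviations of same-numbered libraries correlated at 0.129, -0.00044 and 0.0253, and scr 2 deviated most like shRBM39 3 (0.107). The value of 0.129, for scr 1 and shRBM39 1, was the highest of all pairings. Deviations are taken from means of 3 libraries, so these values cannot decide whether the numbers mark pairs. With the replicate block 7530 genes were called, 2531 higher and 4999 lower.

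Among the 260 named genes, signs turned after median scaling, with or without the replicate block, for CADM1 (0.032), TACC3 (0.046) and CCND1 (0.042), and after quantile normalization for XBP1 (-0.030), FTL (-0.068), ITGB7 (-0.071), RPLP0 (-0.019), RPS25 (-0.080) and RPLP2 (-0.33); the cause was not tested. The depth of each library in reads is not known here, so no limit from counting error is given.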

Other observations

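Several gene families outside the lists above were described after their values had been seen. Subunits of the V-ATPase, the proton pump that acidifies lysosomes, were lower in 12 of 16 tested cases and higher in 2, or 1 without scr 2 or scr 3, and in 9 and 4 after median scaling. The subunit genes ATP6V1A (9.96 ± 0.89 against 18.5 ± 1.05 FPKM, shRBM39 against scr, mean ± SD, n = 3 each) and ATP6V1B2 (49.7 ± 1.21 against 79.8 ± 2.63 FPKM) were lower. Semaphorins and their plexin receptors, which guide cell migration, were lower in 11 of 15 cases and higher in 2, and in 8 and 2 after median scaling. SEMA7A was 20.4, 22.2 and 23.9 FPKM in scr and 5.19, 4.85 and 5.23 FPKM in shRBM39, and PLXNA1 75.9, 79.4 and 81.7 FPKM against 27.6, 34.2 and 32.8 FPKM. The lymphocyte semaphorin gene SEMA4A was higher, at 174 ± 3.12 against 117 ± 5.96 FPKM. Across all genes tested, 48.1% were lower and 24.1% higher as deposited.

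Of 6 STAT signal transducer genes tested, 3 were higher and 3 lower, and 3 and 2 after median scaling, so the family had no common direction. Among the lower ones STAT4, which acts downstream of IL-12, was 33.8, 34.9 and 40.5 FPKM in scr and 9.93, 7.31 and 9.14 FPKM in shRBM39. Every scr library lay above every shRBM39 library. Of 7 SOCS genes, which restrain cytokine receptors, 6 were lower and 0 higher, and 5 and 0 after median scaling. SOCS2 was at 2.53 ± 0.128 against 6.22 ± 0.515 FPKM. Dual specificity phosphatases were lower in 11 of 17 cases and higher in 2, with 7 lower without scr 2 or scr 3, and in 7 and 5 after median scaling, where 3 were higher without scr 1. DUSP8 was 3.43, 3.92 and 4.01 FPKM in scr and 0.195, 0.144 and 0.236 FPKM in shRBM39, whereas DUSP6, induced by ERK signalling, was 62.7, 58.6 and 60.4 FPKM against 107, 104 and 111 FPKM. DUSP8 was below 1 FPKM in every shRBM39 library, so it passed the filter only through the group where it is high.

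Genes usually confined to skin or germ cells were also measured. Of 17 cornified envelope genes listed, 5 were tested, and the other 12 were at most 0.63 FPKM. All 5 were lower on both scales, or 4 without any 1 of the scr libraries. SPRR2D was 14, 15.4 and 12.7 FPKM in scr and 2.14, 1.52 and 1.9 FPKM in shRBM39. SPRR2A, a close paralog, was at 18.1 ± 0.8 against 31.8 ± 1.14 FPKM. Of 9 MAGE cancer-testis genes, 4 were higher and 5 lower, and 4 and 4 after median scaling. MAGEA1 was at 87.1 ± 3.72 against 47.2 ± 1.82 FPKM and MAGEA4 at 109.7 ± 2.58 against 156 ± 4.1 FPKM, with the reservation that genes of this family share reads.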
